A study of Canis lupus familiaris with 10 samples.

Results

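SERPINB2 and 6 other genes of the plasminogen activator system were followed in CCH, canine cutaneous histiocytoma, a benign tumor of the skin in dogs whose cells belong to the Langerhans cell lineage. The members were taken by symbol from a table of 23266 genes, and all 7 were found in it: the activators PLAU and PLAT, the receptors PLAUR, ANXA2 and S100A10, and the inhibitors SERPINB2 and SERPINE2. SERPINB2 was chosen by its measured fall from early to late tumors in these libraries, so its stage difference is given as a description without a test. The other 6 genes were chosen for their role, with earlier results of these data known.

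The libraries came from formalin-fixed, paraffin-embedded (FFPE) tissue and were made with QuantSeq 3′, which reads a single short fragment near the 3′ end of each transcript. By this design, read numbers do not grow with transcript length, so read counts of different genes are set side by side below. Differences between genes in 3′ end annotation and in mapping can still shift these counts, and their part was not tested. The study compared 5 early tumors, of histological group 1, with 5 late tumors, of group 3, whose labels describe them as rich in lymphocytes. Every tumor was a spontaneous case from a different dog, with no treatment named. The early group held 2 French Bulldogs, a Goldendoodle, a Terrier and a Boxer, aged 0.5 to 5 years where an age was given (n = 4). The late group held a Rottweiler, a Beagle, a Pug, a Bullterrier and a Jack Russell Terrier, aged 1.5 to 9 years. Breed thus differed between the stages throughout, and the samples were sections of whole tumors, with the skin and the infiltrate they contain.

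Plasminogen is a circulating zymogen that is cut to the protease plasmin by urokinase (PLAU) or tissue plasminogen activator (PLAT). Urokinase acts at the cell surface when bound to its receptor PLAUR, and the annexin A2 and S100A10 heterotetramer binds plasminogen there. Serpins, SERPINE2 and SERPINB2 among them, inhibit the activators, and SERPINB2 is known from monocytes, macrophages and stressed keratinocytes, where much of it stays inside the cell.

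Between 2973125 and 4439709 reads were assigned to genes per library, so that 1 read was worth a normalized read count of 0.788 to 1.07. RNA quality, measured as the DV200 share of longer fragments, was 68.5% ± 2.46 in early and 73.2% ± 2.09 in late samples (SD, n = 5 each). Each RNA extraction batch and each index set listed by the study held a single stage, so batch and stage cannot be told apart. Column names of the table give only the stage, so the numbers 1 to 5 of the libraries are names and carry no order. Of 12397 genes tested, limma called 269 (2.17%) with thresholds of 0.05 for the Benjamini-Yekutieli (BY) adjusted p and of 1 for the absolute log2 fold change (log2FC), 131 higher (1.06%) and 138 lower (1.11%) in late CCH. The late and the early values did not overlap in 12% of the genes tested, with all late values above in 5.91% and below in 6.05%.

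SERPINB2 was expressed in every early tumor and was close to the detection limit in late tumors. Its normalized read counts were 146, 112, 127, 63.0 and 98.8 in early libraries 1 to 5. In late libraries 1 to 5 they were 3.98, 7.61, 0.968, 0 and 0. The lowest early value lay 8.28-fold above the highest late value, and the early values spanned only 2.31-fold. The mean was 109 ± 31.2 in early and 2.51 ± 3.28 in late CCH (SD, n = 5 each), from 585 reads against 13. The ratio of the means was 43.5, with an exact 95% interval of 25.2 to 82.1 that covers counting error only. Late library 2 held 8 of the 13 late reads, and without it the ratio was 88.3, outside this interval. Without any other single library it lay between 34.8 and 50.9. On the log2(value + 1) scale, on which the change of a low gene is understated, the difference was -5.45. This placed SERPINB2 at rank 2 among the 12397 genes ordered by their fall. No read was found in late libraries 4 and 5, where a count of 0 allows a normalized read count of up to 3.07 and 3.15. SERPINB2 passed the filter on low values (5 libraries with 10 or more) only through its early libraries. In bulk tissue, fewer cells of a type and less RNA per cell cannot be told apart, and this holds for every difference given here.

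**Figure D1:**
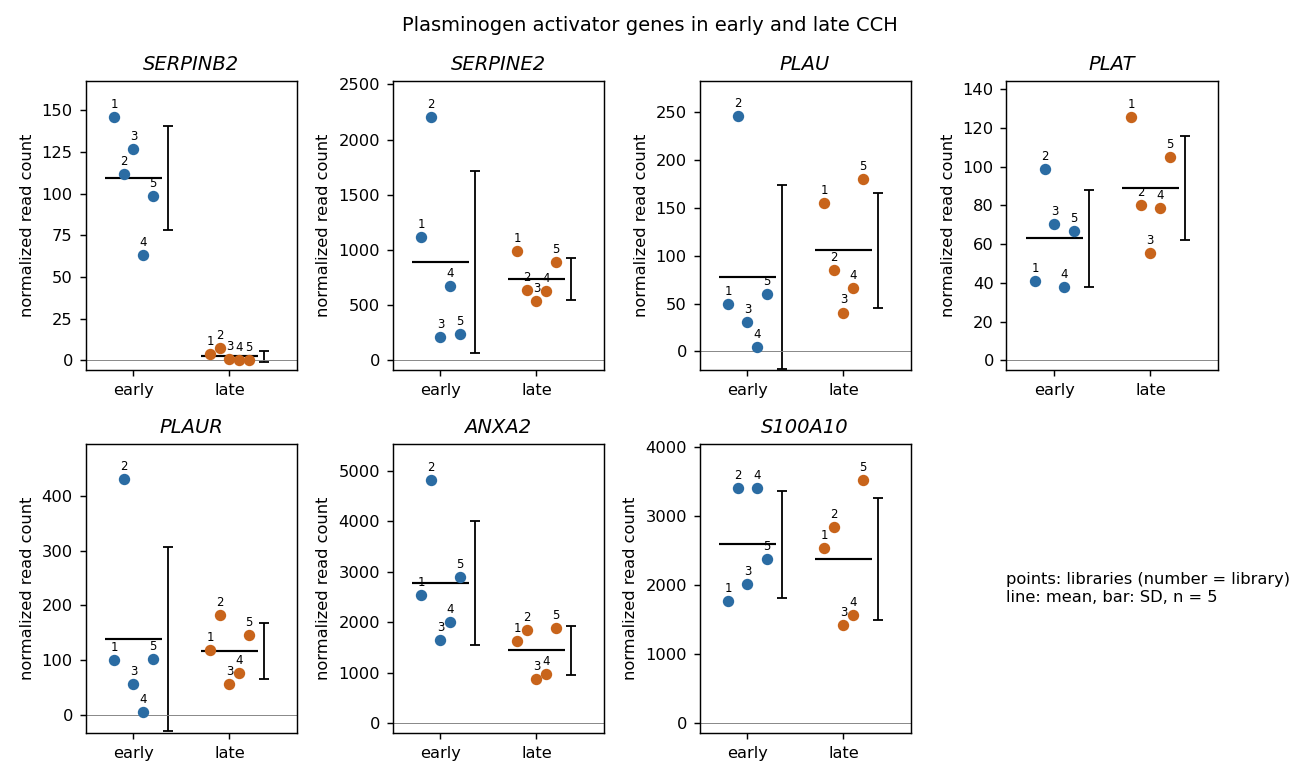
Normalized read count of the 7 genes in each early and late library, on linear axes; points are libraries with their numbers, horizontal lines are means and vertical bars the SD (n = 5). The 5 late SERPINB2 values, 0 to 7.61, lie below the 5 early ones, 63.0 to 146, while both stages overlap in the other 6 genes.

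Among the activators, PLAU, the gene of urokinase, was measured at 49.5, 246, 30.8, 4.73 and 60.1 in early libraries 1 to 5. The late libraries gave 155, 84.7, 40.7, 66.5 and 180.5. Early library 2 was the highest of all and early library 4 the lowest, so the late values lay inside the early range. The means were 78.1 ± 96.0 in early and 105 ± 59.7 in late CCH. The log2FC of 1.12 ± 0.78 (SE, 95% interval -0.58 to 2.83) did not pass the test (limma, unadjusted p = 0.176, BY-adjusted p = 1). Without early library 2 the log2FC was 1.76, and without early library 4 it was 0.40, neither called. The value of early library 4 rested on 6 reads.

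PLAT, the gene of tissue plasminogen activator, had early values of 40.9, 98.6, 70.6, 37.8 and 66.6. Its late values were 125, 79.9, 55.2, 78.7 and 105. Late libraries 1 and 5 exceeded every early library, and the other 3 lay within the early range. The means were 62.9 ± 24.8 and 88.8 ± 26.9, with a log2FC of 0.53 ± 0.31 (95% interval -0.14 to 1.19) that was not called (limma, unadjusted p = 0.11, BY-adjusted p = 1). The interval covers a small decrease as well as an increase of more than 1 on the log2 scale.

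The receptor of urokinase, PLAUR, gave 99.0, 431, 55.2, 3.94 and 101 in the early libraries. The late libraries gave 117, 183, 56.2, 75.7 and 146. As for PLAU, early library 2 was highest and early library 4, with 5 reads, was lowest, and the late values lay between them. The means were 138 ± 168 and 116 ± 51.3, and the log2FC was 0.70 ± 0.89 (95% interval -1.22 to 2.63; limma, unadjusted p = 0.443, BY-adjusted p = 1). The log2 ratio of the mean values had the opposite sign, -0.26, and without early library 4 the log2FC turned to -0.23. No direction can be given for PLAUR.

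ANXA2, the annexin that presents plasminogen at the cell surface, had early values of 2545, 4814, 1638, 2006 and 2892. Late values were 1631, 1840.0, 874, 965 and 1895. Late libraries 1, 3 and 4 lay below every early library, whereas the remaining 2 fell within the early range. The means were 2779 ± 1236 and 1441 ± 487, and the log2FC was -0.92 ± 0.30 (95% interval -1.58 to -0.26). An unadjusted p below 0.05 in limma was reached by 30.9% of all genes tested, and among the 6 genes by ANXA2 alone (0.00987). It was not called, since the BY-adjusted p was 0.575 and the log2FC stayed under 1 in size. Its log2FC ranged from -1.08 to -0.70 over the 21 alternatives, without a call in any of them.

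S100A10, the partner of annexin A2, had early values of 1765, 3407, 2006, 3395 and 2375 and late values of 2529.6, 2836, 1422, 1571 and 3515. High and low libraries occurred in both stages. The means were 2589.6 ± 772 and 2375 ± 879, with a log2FC of -0.16 ± 0.27 (95% interval -0.75 to 0.44; limma, unadjusted p = 0.576, BY-adjusted p = 1). The interval excludes a difference of 1 on the log2 scale in either direction.

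The inhibitor SERPINE2, also named protease nexin 1, acts on thrombin and on both activators. Its early values were 1121.5, 2200.4, 215, 677 and 238, a 10.2-fold span. Its late values were 990.4, 639, 538, 633 and 893, which spanned 1.84-fold. The early libraries thus lay on both sides of the late ones. The means were 890.4 ± 821 and 739 ± 193, and the log2FC was 0.23 ± 0.54 (95% interval -0.94 to 1.41; limma, unadjusted p = 0.675, BY-adjusted p = 1). The log2 ratio of the mean values was -0.27, so the direction depended on the scale.

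Of the 6 genes other than SERPINB2, none was called by limma, beside 2.17% of all genes tested, or with BH (Benjamini-Hochberg) in place of BY adjustment, beside 9.04%. None was called by edgeR, beside 1.43%, or by DESeq2, beside 6.53%. None had stages without overlap, beside 12% of all genes. Their log2FC was above 0 in 4 and below 0 in 2, with a median of 0.38, beside a median of -0.004 over all genes tested. The 95% intervals of PLAU, PLAT, PLAUR, ANXA2 and SERPINE2 hold differences of more than 1 in size, and that of S100A10 does not.

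**Figure D2:**
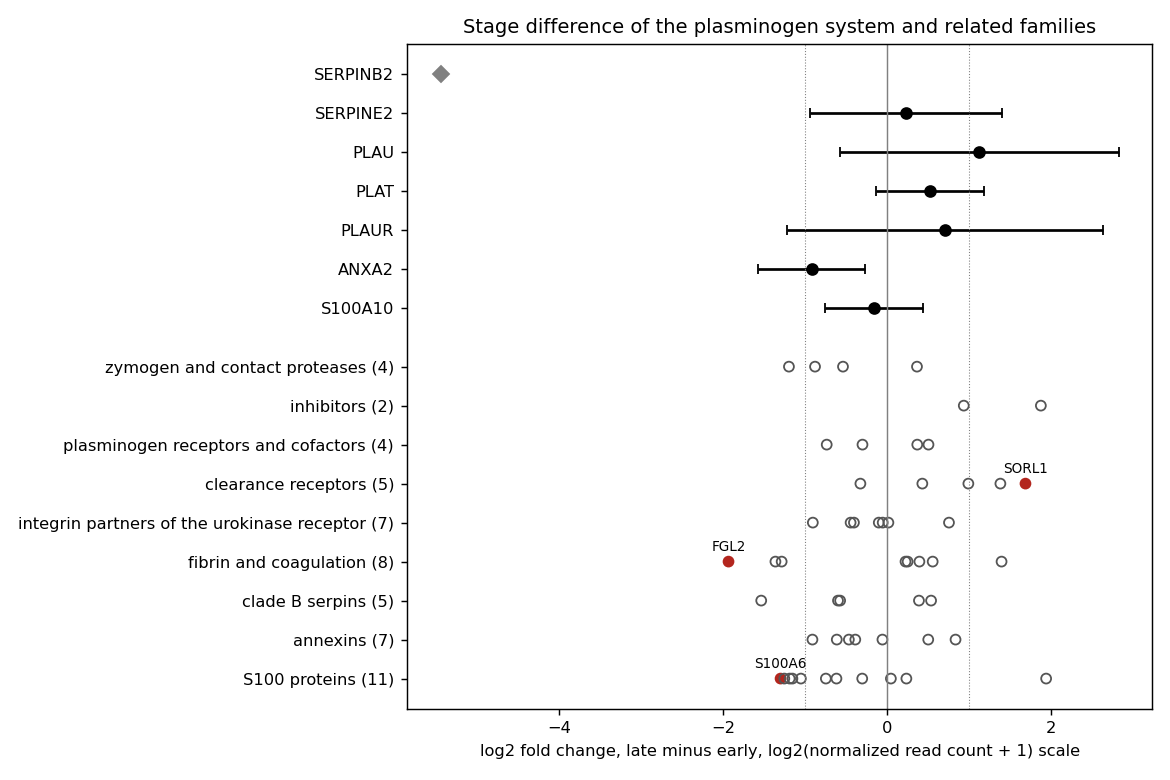
Log2FC, late minus early, on the log2(normalized read count + 1) scale for the 7 genes (dots with 95% intervals; grey diamond, SERPINB2, a description without a test) and for related gene lists with the number of genes tested in brackets. Filled red symbols mark called genes, which were FGL2, SORL1 and S100A6, and dotted lines mark a log2FC of -1 and 1.

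In the order of the levels, SERPINB2 stood between PLAUR and PLAU in early CCH and last in late CCH. In early CCH the mean normalized read counts ran from ANXA2 (2779) and S100A10 (2589.6) over SERPINE2 (890.4) to PLAUR (138), SERPINB2 (109), PLAU (78.1) and PLAT (62.9). Each of these genes overlapped with its neighbor in this order. In late CCH the order was S100A10 (2375), ANXA2 (1441), SERPINE2 (739), PLAUR (116), PLAU (105), PLAT (88.8) and SERPINB2 (2.51). Here SERPINE2 was separated from PLAUR, whose highest library reached 183 while the lowest SERPINE2 library was at 538. SERPINB2 was separated from PLAT, with a highest value of 7.61 against a lowest value of 55.2. The other neighbors overlapped. Over all 10 libraries the mean of ANXA2 exceeded that of 98.5% of the genes tested and that of S100A10 98.7%, while SERPINB2 exceeded 35.4%.

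The members also differed in how far dogs of the same stage lay apart. The SD of log2 values within a stage was 1.73 for PLAUR, larger than in 98.1% of the genes tested, and 1.52 for PLAU, larger than in 96.7%. It was 0.56 for ANXA2, 0.51 for PLAT and 0.50 for S100A10. SERPINE2 (1.05) differed by stage, with an SD of 1.44 in early and 0.37 in late CCH. So did PLAUR, with 2.35 in early and 0.69 in late CCH, and PLAU, with 1.96 and 0.87. The early SD of PLAUR and PLAU includes early library 4, with 5 and 6 reads. SERPINB2 (1.04) had 0.46 in early CCH and 1.39 in late CCH, where it rested on 0 to 8 reads per library. The activator gene PLAU and the receptor gene PLAUR ordered the early libraries identically, from library 2 over 5, 1 and 3 to 4. Early library 2 was the highest early library for all 6 genes other than SERPINB2, and late library 3 was the lowest late library for the same 6. SERPINB2 did not share this order, since early library 1 was its highest. Early library 2 also had the highest early sums of fibroblast (61590.0), macrophage (11749), neutrophil (9380) and endothelial markers (849). Early library 4 had the lowest early macrophage sum (2663), but its fibroblast sum (13060) was above that of early library 3 (8279). The endothelial sum of early library 4 (840) was close to that of early library 2. The part of these cells in the spread of PLAU and PLAUR was not tested.

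Ratios within a library do not depend on the scaling between libraries. S100A10 relative to ANXA2 was 0.694, 0.708, 1.22, 1.69 and 0.821 in early libraries 1 to 5. In the late libraries it was 1.55, 1.54, 1.63, 1.63 and 1.85. The partner of annexin A2 therefore had more reads than ANXA2 in every late library but in only 2 of the 5 early ones. The median was 0.821 in early and 1.63 in late CCH, and the SD of the log2 ratio was 0.56 against 0.11. Early library 4 lay above 4 of the late libraries, so the stages overlapped. Ratios are given as descriptions without a test.

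PLAUR relative to PLAU was 2.00, 1.75, 1.79, 0.833 and 1.68 in the early and 0.756, 2.16, 1.38, 1.14 and 0.808 in the late libraries. The ratio lay near its early median of 1.75 in 4 early libraries, although PLAU itself spanned from 30.8 to 246 in these. The late ratios were more scattered and overlapped with the early ones. SERPINE2 relative to PLAU ranged from 3.96 to 143 in early and from 4.95 to 13.2 in late CCH, and its highest value, in early library 4, came from the 6 PLAU reads there.

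**Figure D3:**
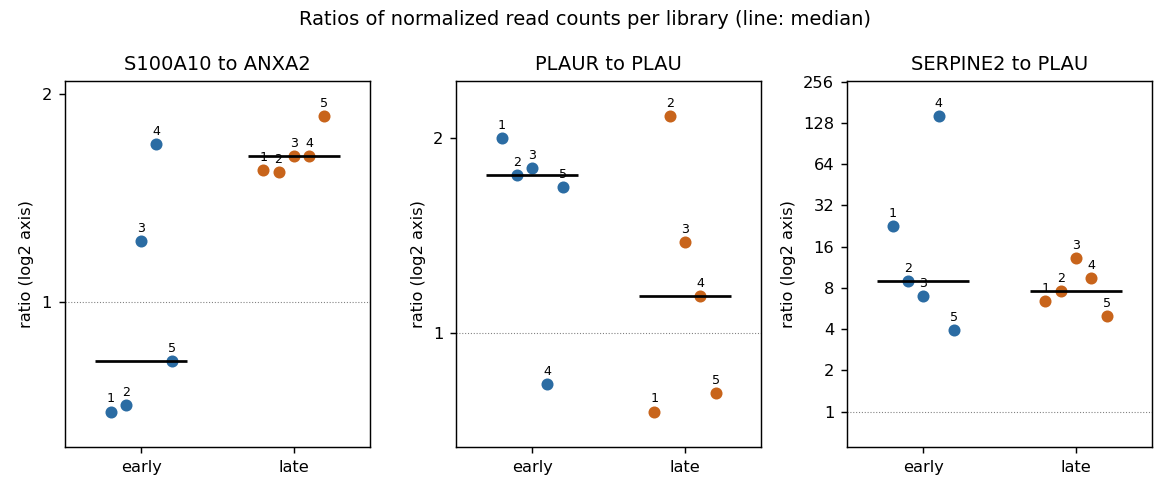
Ratios of normalized read counts within each library (log2 axes) for S100A10 to ANXA2, PLAUR to PLAU and SERPINE2 to PLAU; points are libraries with their numbers and lines are medians of 5. The late S100A10 to ANXA2 ratios lie between 1.54 and 1.85, and the early ones between 0.694 and 1.69.

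Other genes of fibrinolysis were taken from a list of 44, of which 40 were in the table and 30 were tested. limma called 1 of them higher and 1 lower in late CCH, beside 1.06% and 1.11% of all genes. The log2FC was above 0 in 16 and below 0 in 14, with a median of 0.12. All late values lay above all early values in 2 of the 30 genes and below them in 2, beside 5.91% and 6.05% of all genes tested. The counts of calls by role, given below, stand beside the same 1.06% and 1.11% of all genes tested. Plasminogen itself, PLG, which is made in the liver, had a single read in the early and none in the late libraries.

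The called gene that fell was FGL2, which encodes a fibrinogen-like protein with prothrombin-cleaving activity that myeloid and T cells can express or secrete. It had 2624, 3231, 3167, 2917 and 3914 in the early libraries against 853, 844, 1156, 537 and 835 in the late ones. Every late value was below every early value. The means were 3171 ± 480 and 845 ± 219, and the log2FC was -1.94 (limma, BY-adjusted p = 0.00429). FGL2 was called in all 21 alternatives.

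The called gene that rose was SORL1, a sorting receptor of the LDL receptor family that binds urokinase, its receptor and their complexes with inhibitors. Its early values were 80.0, 95.8, 69.7, 79.6 and 55.8 and its late values 209, 285, 267, 335 and 163. The stages did not overlap. The means were 76.2 ± 14.7 and 251.9 ± 67.4, with a log2FC of 1.69 (limma, BY-adjusted p = 0.0130). Without late library 2 the log2FC was 1.63 and the BY-adjusted p 0.0509, so that the call was lost.

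Of the 5 clearance receptors tested, SORL1 was called, and LRPAP1, the chaperone of the LDL receptor family, also had late values that all exceeded the early ones. LRPAP1 had means of 203 ± 41.6 and 407 ± 100.04 (limma, BY-adjusted p = 0.0825). IGF2R, which binds the urokinase receptor and plasminogen, had the highest mean of this role over all 10 libraries, though not in early CCH, where LRP1 had 443. IGF2R had 317 ± 147 in early and 773 ± 206 in late CCH (log2FC 1.38, limma, BY-adjusted p = 0.153). Both missed the threshold of the BY adjustment in limma, and LRPAP1, with a log2FC of 0.99, also missed that of 1. DESeq2 with BY adjustment called LRPAP1 and IGF2R higher in late CCH.

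None of the 4 plasminogen receptors and cofactors tested was called. AHNAK, a large scaffold protein that binds the annexin A2 and S100A10 complex, had no overlap between the stages, as had 12% of all genes tested. Its values were 2367 to 2848 in early and 1181 to 1956 in late CCH, with means of 2523 ± 213 and 1543 ± 359. The log2FC was -0.74, under 1 in size, and the BY-adjusted p was 0.115 (limma).

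Neither the 4 proteases nor the 2 inhibitors tested held a call. Cathepsin B (CTSB), a lysosomal protease that can activate urokinase, was the most abundant protease, with 2889 ± 1882 in early and 3181 ± 733 in late CCH (log2FC 0.37, limma, BY-adjusted p = 1). Of the inhibitors, the C1 inhibitor SERPING1 was most abundant, with 751 ± 213 and 1429 ± 359 (log2FC 0.94, limma, BY-adjusted p = 0.151). Its highest early library, at 1037, overlapped with its lowest late library, at 1029.

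No call was made among the 7 integrin partners of the urokinase receptor. The most abundant, ITGB2, the common beta chain of the leukocyte integrins, had nearly the same mean in both stages, 2502 ± 596 and 2527 ± 582 (log2FC 0.02, limma, BY-adjusted p = 1). Of 8 fibrin and coagulation genes tested, only FGL2 was called. Over the whole fibrinolysis list 11 of the 30 genes had an unadjusted p under 0.05, beside 30.9% of all genes tested.

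SERPINB2 belongs to the clade B serpins, most of which lack a classical signal peptide and act inside cells. In the RefSeq gene order of the dog assembly UU_Cfam_GSD_1.0, used for names and neighbors only, SERPINB10 lies on one side of SERPINB2 and SERPINB7, followed by SERPINB11, on the other. SERPINB10 had early values of 191, 493, 9.05, 17.3 and 942 and late values of 27.8, 37.1, 200.5, 16.4 and 19.9. It varied over the full range within early CCH, unlike SERPINB2, and the stages overlapped (log2FC -1.54, limma, BY-adjusted p = 1). SERPINB7 had means of 6.45 ± 3.42 and 3.82 ± 7.98, and SERPINB11 of 10.1 ± 5.99 and 1.25 ± 1.87. Both were under the filter on low values and were not tested.

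Of 10 other clade B serpins listed, 9 were in the table and 5 were tested. None was called by limma, edgeR or DESeq2, beside 2.17%, 1.43% and 6.53% of all genes tested. SERPINB9, an inhibitor of granzyme B, was the only one with an unadjusted p under 0.05 (0.0277, limma), which 30.9% of all genes tested reached. Its means were 655 ± 207 and 920.2 ± 143. SERPINB1, an inhibitor of neutrophil proteases, was the most abundant, at 4043 ± 1514.5 and 2621 ± 696 (log2FC -0.57). SERPINB5, or maspin, an epithelial serpin, had 83.5 ± 75.2 and 56.1 ± 56.7 (log2FC -0.60). SERPINB6, a broadly expressed inhibitor, had 183 ± 54.8 and 242 ± 76.0 (log2FC 0.39). The BY-adjusted p was 1 for each of these 4, and the median log2FC of the 5 genes was -0.57.

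Around ANXA2 and S100A10, the other members of their families were counted. None of 7 annexins tested was called by limma, edgeR or DESeq2, beside 2.17%, 1.43% and 6.53% of all genes tested. An unadjusted p under 0.05 (limma) was found in 3 of them, beside 30.9% of all genes tested. Their log2FC ran from -0.91 for ANXA3 (311 ± 86.1 to 170.2 ± 71.3, limma, BY-adjusted p = 0.379) to 0.84 for ANXA6 (947 ± 344 to 1569 ± 228, BY-adjusted p = 0.714), with a median of -0.39. The log2FC of ANXA2 itself, -0.92, was thus close to that of ANXA3.

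Of 11 S100 genes tested, 1 was called, lower in late CCH, beside 1.11% of all genes tested. S100A6, which encodes calcyclin, another partner of annexins, had 15011, 12864, 8732, 14087 and 11861 in the early and 5337, 4734, 4182, 3664 and 8038 in the late libraries. The stages did not overlap, with means of 12511 ± 2427 and 5191 ± 1709 and a log2FC of -1.30 (limma, BY-adjusted p = 0.0421). The call held in 10 of 21 alternatives, and in 2 of 10 leave-one-out fits, those without early library 3 or late library 5. The highest log2FC of the list belonged to S100P, with 1.94 and means of 70.3 ± 47.8 and 234 ± 109 (limma, BY-adjusted p = 0.311). The median of the 11 genes was -0.75.

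Cell type markers were read beside the members. Calls in the marker lists stand beside 1.06% of all genes tested called higher and 1.11% called lower in late CCH. The sum of 9 Langerhans and dendritic cell markers was 3084 to 4509 in early and 1866 to 2480 in late CCH, without overlap, and its mean was 1.72-fold higher in early CCH. CD86 alone gave 2171 of the mean sum of 3786 in early CCH and 1237 of 2207.5 in late CCH. The sum is thus mostly a reading of CD86. Of the 9 markers, 7 had a log2FC below 0 and 2 above 0. Of these markers CD1A8, of the CD1 family that marks Langerhans cells, had the lowest log2FC (-3.80, means 180 ± 121 and 16.8 ± 15.0), and CCR7, a homing receptor of mature dendritic cells, the highest (2.38, means 25.9 ± 16.7 and 108 ± 53.1). The list also held 1 called gene, FLT3, a receptor of dendritic cell growth, which was lower in late CCH (limma, BY-adjusted p = 0.0434) and is named after its values were seen. CD207, the gene of langerin, was not matched by symbol in the table. The Langerhans lineage of the tissue was therefore read from the other markers.

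The sum of 10 T cell markers moved the other way, with 81.9 to 2460 in early and 3771 to 6358 in late CCH, without overlap and with a 4.82-fold higher late mean. All 10 genes had a log2FC above 0, from 2.29 for CD8A to 4.00 for CD28. Of these 10 genes 1 was called, CD6 (limma, BY-adjusted p = 0.0226), beside 1.06% of all genes tested called higher. CD6 was also named after its values were seen.

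Keratinocyte sums overlapped between the stages, with 1026 to 17514 in early and 729 to 9621 in late CCH. Their mean was 2.07-fold higher in early CCH, with a wide spread (8426 ± 7619 against 4075 ± 3971, SD, n = 5 each). All 10 keratinocyte genes had a log2FC below 0, and none was called. Macrophage sums were 2663 to 11749 and 6253 to 11872, and neutrophil sums 222 to 9380 and 91.0 to 9002, with overlap in both. MPO of the neutrophil list had no read in late and only 1 read in early CCH. Mast cell sums were 156 to 1012 and 71.6 to 213. Fibroblast sums, 8279 to 61590.0 and 12460.0 to 37486, and endothelial sums, 507 to 849 and 572 to 1160, overlapped too. B cell sums were 479 to 721 and 599 to 3147. The genes with the lowest and the highest log2FC were MRC1 (-0.88) and MSR1 (2.25) of the macrophage list, DSG1 (-1.56) and DSG3 (-0.30) of the keratinocyte list, and CD22 (-0.28) and CD79B (4.67) of the B cell list. They were TEK (-0.48) and CLDN5 (1.17) of the endothelial, CPA3 (-2.14) and KIT (0.70) of the mast cell and S100A9 (-1.25) and CSF3R (1.47) of the neutrophil list. None of these was called. In the fibroblast list the extremes were LUM (-0.47) and THY1 (1.38), and THY1 was called higher in late CCH (limma, BY-adjusted p = 0.0226). The part of these cell types in the SERPINB2 difference was not tested.

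**Figure D4:**
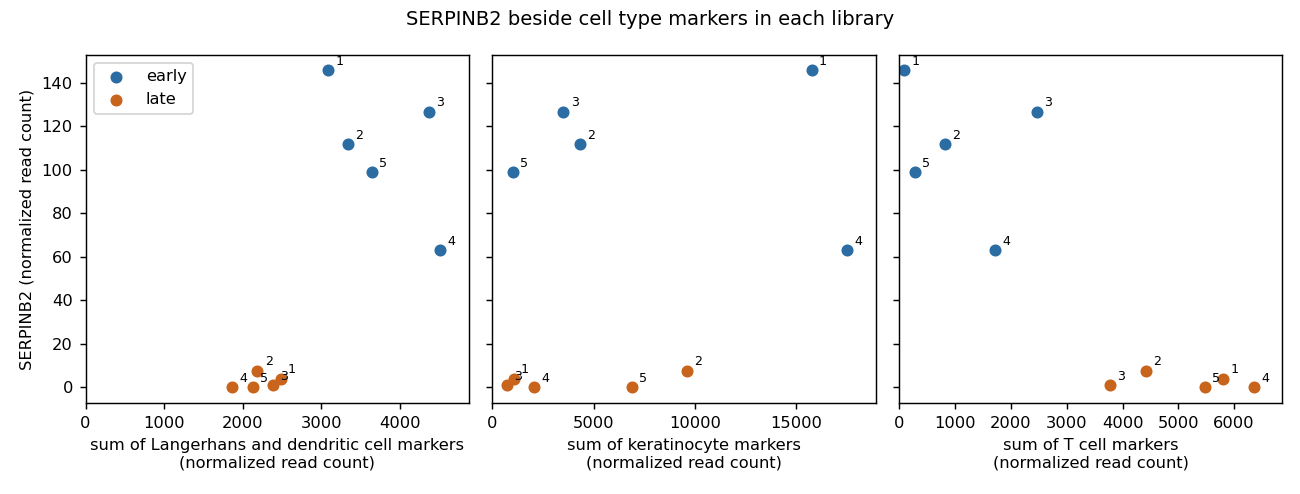
SERPINB2 (normalized read count, vertical axis) against the summed normalized read counts of Langerhans and dendritic cell, keratinocyte and T cell markers (horizontal axes) in each library; numbers name the libraries. Early and late libraries are apart on the Langerhans and T cell axes and mixed on the keratinocyte axis. CD86 gave the largest part of the Langerhans and dendritic cell sum.

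The 5 genes whose pattern was most like that of SERPINB2 were found by the root mean square difference of centred log2(value + 1) values over the 10 libraries, among 11117 genes ranked with a median difference of 2.91. They were KCNK13 (1.30), a potassium leak channel, MICALCL (1.36), ALOX5 (1.38), the lipoxygenase that starts leukotriene synthesis, MMP12 (1.40), the macrophage metalloelastase, and APOBEC2 (1.42), of the deaminase family. Each of them was lower in every late than in every early library, with a log2FC of -3.73, -3.20, -4.34, -4.64 and -3.41. They were picked for likeness to SERPINB2, so their low late values follow from this choice and no test applies to them. MICALCL, MMP12 and APOBEC2 passed the filter on low values only through their early libraries. Their late values rested on 22, 10 and 13 reads.

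They differed in how even the early libraries were. KCNK13 was 144 to 224 in the early libraries and 1.05 to 38.7 in the late ones. ALOX5 was 161 to 463 in early and 3.98 to 24.7 in late CCH, and MICALCL 30.1 to 58.8 and 0 to 7.61. MMP12 was uneven, with 219 and 192 in early libraries 2 and 3 but 13.4 and 16.1 in libraries 4 and 5, and 0 to 4.09 in late CCH. APOBEC2 ranged from 11.8 to 79.0 in early and from 0 to 8.56 in late CCH. By the same measure, of the other 6 genes of the plasminogen activator system, 2 had a smaller and 4 a larger difference than the median of 2.91. ANXA2 came at rank 537 with a difference of 2.44, S100A10 at 4187 with 2.83, SERPINE2 at 8358, PLAT at 8525, PLAUR at 10108 and PLAU at 10516. SERPINB2 was picked for its fall, so this measure depends on the stage difference of each gene. The 2 genes under the median, ANXA2 and S100A10, are also the 2 with a log2FC below 0, so these ranks add no separate result.

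**Figure D5:**
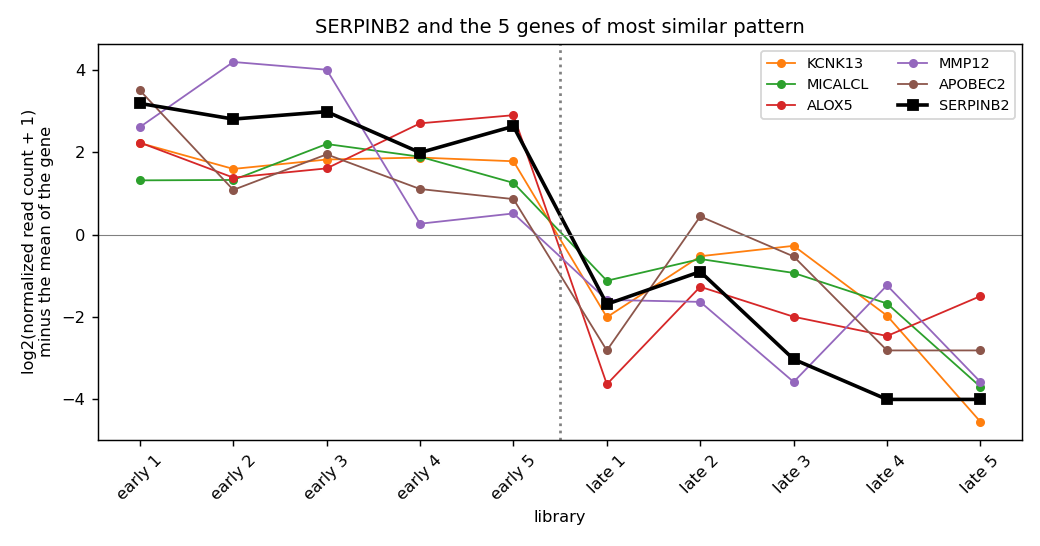
Log2(normalized read count + 1) minus the mean of each gene over the 10 libraries (vertical axis) for SERPINB2 (black squares) and the 5 genes of most similar pattern (colored dots), by library; the dotted line divides early from late libraries. All 6 genes lie above their own mean in early libraries, and APOBEC2 rises above it again in late library 2.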

How the data were processed

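The authors trimmed reads with Cutadapt, aligned them with STAR to CanFam3.1, counted them with featureCounts and divided the counts by a size factor per library. Reads mapping to several places were split among them, so that genes with near-identical copies are uncertain, which was not tested for the members. Versions are not given in the sources used here. The deposited signal is thus a normalized read count. In the 10 columns used, 100% of 166096 values above 0 were whole multiples of 1 read (tolerance 0.001 reads). A further 11 columns match no sample used here and were left out.

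Stages were compared with limma 3.58.1 (R 4.3.3) on log2(value + 1), fitting the variance as a trend of the mean and no covariates, for the 12397 genes that reached 10 in 5 or more libraries. The study itself used DESeq2, which needs raw counts. P-values were BY-adjusted, and log2FC is late minus early. They measure only the spread between these samples. Alternatives were edgeR 4.0.16 and DESeq2 1.42.0 on the recovered reads, TMM, RLE or column total scaling, pseudocounts of 0.5 and 5, other filters, BH adjustment, library weights and leaving out each library. The limit of a count of 0 was 3 reads per library. Intervals cover 95%. The interval of the SERPINB2 ratio rests on reads pooled over the libraries of a stage, so it covers counting error only and no spread between dogs. The reads also carry no molecular identifiers, which this interval does not allow for.

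The members and the gene lists were chosen with earlier results of these data known. The text names all members, called or non-overlapping fibrinolysis genes and the most abundant of each role, tested clade B serpins, the extremes and calls of the annexin and S100 lists, the extremes of the marker lists (with the called FLT3 and CD6, named after their values were seen), and the 5 genes most like SERPINB2. CD86 was also named after its values were seen. Of the 7 members, 6 (all but PLAUR) matched the RefSeq table by symbol. No sequences were used. A result of the fibrinolysis list is not reported here.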

Additional observations from a re-analysis of the deposited data

Results flagged for a closer look

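Values were looked at again where the most extreme library of a stage stood apart from the other 4 by more than 0.71 of the whole range (Dixon's criterion at 95%). Of 20 groups tested, 5 met it, where chance gives about 1 in 20. Early library 2 stood apart for PLAU, at a normalized read count of 245.6 with the next library at 60.1, and for PLAUR, at 430.8 with the next at 100.9. Early library 4 stood apart in the ratio of PLAUR to PLAU, at 0.8333 with the next at 1.68, and in that of SERPINE2 to PLAU, at 143.2 with the next at 22.7. Both ratios rest on 6 PLAU reads. Late library 5 stood apart in the ratio of S100A10 to ANXA2, at 1.855 with the next at 1.63, although the late ratios spanned little.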

How the results depend on the processing

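The 6 tested members and the clade B serpins had no call in any of the 21 alternatives. The sign of 3 uncalled members depended on the processing, and the cause was not tested. SERPINE2, with a log2FC of 0.23, turned to -0.26 in edgeR and -0.27 in DESeq2, to -0.14 without early library 3 and to -0.11 without early library 5 (range when leaving out 1 library, -0.14 to 0.69). PLAUR, with 0.70, turned to -0.25 in edgeR and -0.26 in DESeq2 and to -0.23 without early library 4 (range -0.23 to 1.38). S100A10, with -0.16, reached 0.0061 without late library 3 (range -0.32 to 0.0061). The log2FC of SERPINB2 was -5.98 with a pseudocount of 0.5 and -3.98 with one of 5, and could be fitted in 5 of the 10 fits that left out a library, since it failed the filter without an early one.

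In the fibrinolysis list the count of genes called higher was 1, 2 with BH adjustment (SORL1 and IGF2R), 3 in DESeq2 (with LRPAP1) and 0 to 1 when leaving out 1 library, 0 without late library 2. Annexins and S100 genes called higher were 0, but 1 with BH adjustment and 1 in DESeq2 (S100P). Those called lower were 1, but 0 with column total scaling, 0 without the filter, 0 in edgeR, 2 with BH adjustment and 2 in DESeq2 (S100A6 and S100A13), and 0 to 1 when leaving out 1 library. Over all genes limma called 269 (2.17%), BH adjustment 1121 (9.04%), edgeR 177 (1.43%) and DESeq2 810 (6.53%). The column total scaling shifted the median log2FC of all genes to 0.09. No paired analysis was possible because no replicate number stands in the column names and each dog gave 1 tumor. Depth limits SERPINB2 in late CCH (13 reads) and PLAU and PLAUR in early library 4.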
